A study of Mus musculus with 8 samples.

Results

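The genes described here make cholesterol and fatty acids or set how strongly that synthesis is switched on. They were a list of 33 symbols, and a gene was kept where the array held a probe set (the short oligonucleotides that together report 1 transcript) annotated to exactly 1 symbol. That left 32 of the 33 genes, out of 18193 genes measured by the same rule, because Acat2 had no such probe set. Each gene was read from its brightest probe set over all 8 arrays. All 32 lay above the median level of all genes.

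The study asked what the histone demethylases Jmjd2b and Jmjd2c do for the identity of mouse embryonic stem (ES) cells. Male 129S4/Svjae ES cells in medium with LIF (a cytokine that keeps ES cells undifferentiated) received lentivirus with a short hairpin RNA, were selected with puromycin, were passaged a few times and were profiled on 1 expression array each. The hairpin was against Jmjd2c in 2 samples, against Jmjd2b in 3 samples and against GFP, a jellyfish protein used as control target, in 3 samples, so the controls also carried a virus, a hairpin and the selection. Hairpin sequences, the number of hairpins per target and whether samples came from separate infections are not given in the sources used here, and the p-values therefore reflect spread among these arrays, part of which can be technical.

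Cholesterol is built from acetyl-CoA through mevalonate and farnesyl diphosphate to squalene, which is closed to lanosterol and then trimmed in a series of steps in the endoplasmic reticulum. Fatty acids share the starting material: citrate or acetate gives acetyl-CoA, which acetyl-CoA carboxylase and fatty acid synthase turn into saturated chains for elongases and desaturases. The transcription factors encoded by Srebf1 and Srebf2 drive most of these genes. They wait in the membrane bound to the escort protein Scap, and when sterols are low Scap carries them to the Golgi to be cut and released, which Insig proteins prevent when sterols are plentiful.

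Promoter sequences are shown first, because sterol-driven promoters are known for a sterol regulatory element beside a CCAAT box, and because the genes shown moved in different ways. RefSeq promoter windows (GRCm38.p6, 250 bases before to 50 after the annotated start) were at hand for 25 of the 32 genes, in 31 windows, and not for Fdps, Fdft1, Sqle, Stard4, Scd1, Scd2 and Fads1. Hmgcs1 is shown as a gene that did not pass the test in either knockdown, from chr13:119690101-119690400 (+ strand). Idi1 from chr13:8885356-8885655 (+ strand), Ebp from chrX:8193463-8193762 (- strand), Sc5d from chr9:42264251-42264550 (- strand) and Fasn from chr11:120824498-120824797 (- strand) are shown as genes that were higher in the Jmjd2b knockdown. Tm7sf2 from chr19:6067801-6068100 (- strand) and Acss2 from chr2:155517793-155518092 (+ strand) are shown as genes that were lower there. Each is printed 5′ to 3′ on the strand of the gene, and capitals mark TCACNCCAC, the core of a sterol regulatory element, and CCAAT on either strand (ATTGG where it lies on the other strand).
Hmgcs1: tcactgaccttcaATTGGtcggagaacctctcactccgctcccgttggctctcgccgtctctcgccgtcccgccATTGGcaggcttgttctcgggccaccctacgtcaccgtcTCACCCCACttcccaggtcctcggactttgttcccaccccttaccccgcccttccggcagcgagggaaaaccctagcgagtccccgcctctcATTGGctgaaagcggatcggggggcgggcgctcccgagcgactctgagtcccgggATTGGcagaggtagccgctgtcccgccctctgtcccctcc
Idi1: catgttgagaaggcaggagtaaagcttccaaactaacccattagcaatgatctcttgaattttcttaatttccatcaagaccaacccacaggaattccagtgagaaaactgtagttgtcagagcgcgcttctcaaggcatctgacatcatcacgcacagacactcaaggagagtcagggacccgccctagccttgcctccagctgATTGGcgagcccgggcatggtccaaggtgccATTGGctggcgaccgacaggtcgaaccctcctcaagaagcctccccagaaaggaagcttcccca
Ebp: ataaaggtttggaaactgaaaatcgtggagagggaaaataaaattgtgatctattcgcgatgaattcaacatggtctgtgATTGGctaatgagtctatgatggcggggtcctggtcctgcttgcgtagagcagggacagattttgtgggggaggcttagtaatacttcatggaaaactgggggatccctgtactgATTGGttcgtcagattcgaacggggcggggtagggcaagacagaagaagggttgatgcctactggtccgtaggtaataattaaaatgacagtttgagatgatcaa
Sc5d: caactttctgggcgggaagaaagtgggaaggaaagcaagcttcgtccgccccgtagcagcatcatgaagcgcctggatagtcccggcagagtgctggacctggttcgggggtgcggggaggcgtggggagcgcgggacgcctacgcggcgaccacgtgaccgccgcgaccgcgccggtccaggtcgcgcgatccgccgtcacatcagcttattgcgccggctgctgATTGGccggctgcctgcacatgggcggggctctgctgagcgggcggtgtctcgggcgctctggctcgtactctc
Fasn: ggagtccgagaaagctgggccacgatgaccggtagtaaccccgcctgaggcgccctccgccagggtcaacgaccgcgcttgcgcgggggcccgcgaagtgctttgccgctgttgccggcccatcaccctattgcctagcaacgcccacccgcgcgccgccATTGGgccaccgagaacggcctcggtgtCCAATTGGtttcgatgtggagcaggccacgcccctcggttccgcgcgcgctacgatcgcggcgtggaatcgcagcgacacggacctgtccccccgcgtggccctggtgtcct
Tm7sf2: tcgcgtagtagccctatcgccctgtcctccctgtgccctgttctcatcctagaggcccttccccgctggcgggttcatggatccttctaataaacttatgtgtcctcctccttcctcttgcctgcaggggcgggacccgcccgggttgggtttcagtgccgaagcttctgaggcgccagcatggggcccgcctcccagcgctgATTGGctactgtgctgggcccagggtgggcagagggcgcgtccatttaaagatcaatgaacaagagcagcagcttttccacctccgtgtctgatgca
Acss2: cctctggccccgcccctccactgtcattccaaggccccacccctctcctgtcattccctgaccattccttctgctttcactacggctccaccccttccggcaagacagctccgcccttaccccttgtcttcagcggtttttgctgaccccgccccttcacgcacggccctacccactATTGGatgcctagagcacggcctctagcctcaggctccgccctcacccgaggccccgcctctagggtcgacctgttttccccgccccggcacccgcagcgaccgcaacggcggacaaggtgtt

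The motif TCACNCCAC stood in 1 of the 31 windows, that of Hmgcs1, where it began 137 bases before the start, and in 1.24% of all 32851 windows of the same length. CCAAT stood in 22 of the 31 windows (71%), against 37.4% of all windows. The GC box GGGCGG stood in 23 of the 31 windows (74.2%), against 35.7% of all windows, and the E-box CACGTG in 7 (22.6%), against 7.15%. By gene, CCAAT was held by 21 of 25, the GC box by 20 and the E-box by 6. The windows of Scap overlap, so an E-box and a GC box there were counted in both. All windows were taken whatever the level of their gene, so these shares are not matched for level. Both strands were searched for every motif, and no motif contains another. In the Fasn window a CCAAT on each strand overlap in 1 run of capitals. Genes of both directions held CCAAT: it is in the windows of Idi1, Ebp, Sc5d and Fasn and in those of Tm7sf2 and Acss2. A match is a run of letters and not a measured binding site. Only exact matches were counted, so a window without a match is not shown to lack the element.

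The values are intensities on a linear scale as the authors deposited them, and changes are given on log2(intensity + 16), which understates the change of dim genes. A gene passed the test where its p from limma's moderated test, adjusted by Benjamini-Hochberg over all 18193 genes, was below 0.05. Kdm4c, the current symbol of Jmjd2c, was at 142 and 469 in the Jmjd2c knockdown, against 1332, 1300 and 1210 in controls (log2 change -2.23 ± 0.36 SE, adjusted p = 0.0069). Kdm4b, the current symbol of Jmjd2b, was at 50.3, 29.3 and 17 in the Jmjd2b knockdown, against 421, 339 and 643 in controls (log2 change -3.34 ± 0.28, adjusted p = 7.6e-05). The targeted gene was thus lower in every array of its own group, and Jmjd2c knockdown array 2 kept more of it than array 1. The gene not targeted was also lower in each knockdown, without passing the test. Kdm4c was at 752, 800 and 650 in the Jmjd2b knockdown, below every control (log2 change -0.79, adjusted p = 0.102). Kdm4b was at 245 and 285 in the Jmjd2c knockdown, also below every control (log2 change -0.74, adjusted p = 0.178).

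Array medians lay between 44.7 and 46.6, so the arrays were on a common scale. They nevertheless fell into sets. In Jmjd2b knockdown array 2 and control arrays 1 and 2, between 412 and 455 values were exactly 1, while the other 5 arrays held between 172 and 241 values below 1. Jmjd2b knockdown array 3 shared more identical values with both Jmjd2c knockdown arrays (0.439% to 0.450% of probe sets) than with any other, and Jmjd2b knockdown array 1 did so with control array 3 (0.386%). Neither Jmjd2c knockdown array had a control in its set, and in that comparison set and group cannot be told apart directly. A model with array set as a term parts them only by way of Jmjd2b knockdown array 3. The ratio of 3′ to 5′ actin probe sets, a sign of RNA integrity, was 1.48 and 1.43 in the Jmjd2c knockdown, 1.42, 1.36 and 1.31 in the Jmjd2b knockdown, against 1.63, 1.45 and 1.56 in controls. For Gapdh the ratio was 0.987 and 0.943 in the Jmjd2c knockdown, and 0.987, 0.974 and 0.937 in the Jmjd2b knockdown. In controls the Gapdh ratio was 0.98, 0.97 and 0.936. The part of RNA integrity in the results below was not tested.

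In the Jmjd2b knockdown, 9 of the 32 genes were higher than in controls and 3 were lower, while 20 did not pass the test. Of all 18193 genes, 11.6% were higher and 12.9% were lower in this comparison (24.4% either way), and of the genes above the median level, where all 32 lie, 18.1% were higher and 19.1% lower. The shares among the 32 genes were 28.1% higher and 9.38% lower. The median log2 change of the 32 was -0.03, as over all genes, and the median size of a change was 0.22, against 0.23 over all genes. The genes that passed went in both directions. An unadjusted p below 0.05 was reached by 15 of the 32 genes, against 35.5% of all genes. The groups did not overlap for 14 of the 32 genes, against 44.8% of all genes, and these 14 included all 12 that passed the test.

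**Figure D1:**
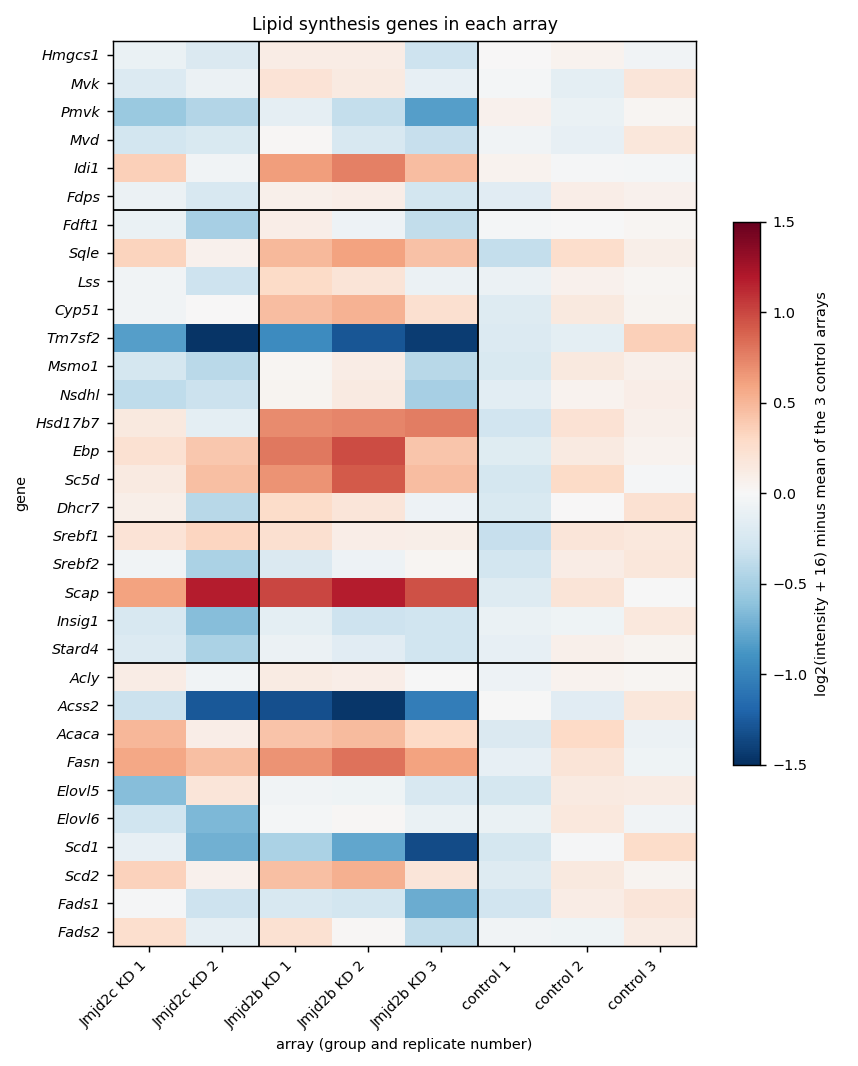
Each row is 1 gene and each column 1 array (Jmjd2c knockdown, Jmjd2b knockdown and control, parted by vertical lines), and colour is log2(intensity + 16) minus the mean of the 3 control arrays. Horizontal lines part the groups of genes by role, in the order acetyl-CoA to farnesyl diphosphate, squalene to cholesterol, sterol sensing and transport, and fatty acid synthesis and desaturation. Tm7sf2 and Acss2 are blue and Scap and Fasn are red in every array of the Jmjd2b knockdown, beside many genes close to white.

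From acetyl-CoA to farnesyl diphosphate, 1 of 6 measured genes rose in the Jmjd2b knockdown (against 11.6% of all genes) and none fell (against 12.9%). That gene was Idi1, which turns isopentenyl diphosphate into its reactive isomer. Idi1 was at 2722 and 2049 in the Jmjd2c knockdown, at 3281, 3601 and 2925 in the Jmjd2b knockdown and at 2208, 2097 and 2074 in controls. All 3 Jmjd2b knockdown arrays stood above all others, a 1.53-fold rise over controls (log2 0.61 ± 0.11 SE, adjusted p = 0.00379). A second probe set of Idi1 gave 0.71 (adjusted p = 0.00398). Hmgcs1, which makes the HMG-CoA that enters the pathway, was at 4514 and 4153 in the Jmjd2c knockdown, at 5214, 5210 and 3898 in the Jmjd2b knockdown and at 4845, 5008 and 4648 in controls. Its change in the Jmjd2b knockdown was -0.03 with a 95% interval of -0.27 to 0.21.

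Pmvk, which adds the second phosphate to mevalonate, was at 352 and 383 in the Jmjd2c knockdown, at 476, 405 and 289 in the Jmjd2b knockdown and at 550, 491 and 537 in controls. Every knockdown array lay below every control array, but neither change passed the test (log2 -0.50, adjusted p = 0.135, in the Jmjd2c knockdown, and -0.44, adjusted p = 0.0873, in the Jmjd2b knockdown). Mevalonate kinase (Mvk), mevalonate diphosphate decarboxylase (Mvd) and farnesyl diphosphate synthase (Fdps) changed by 0.07, -0.19 and -0.04 in the Jmjd2b knockdown, with adjusted p of 0.360 or more.

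From squalene to cholesterol, 5 of 11 genes rose in the Jmjd2b knockdown (against 11.6% of all genes) and 1 fell (against 12.9%). The genes that rose act early, at Sqle and Cyp51, and late, at Hsd17b7, Ebp and Sc5d. The calls of Sqle, Cyp51 and Sc5d did not hold in every omission of an array, as given below. Sqle, the epoxidase that prepares squalene for ring closure, was at 2294 and 1894 in the Jmjd2c knockdown, at 2535, 2755 and 2457 in the Jmjd2b knockdown and at 1414, 2183 and 1922 in controls (log2 0.51 ± 0.15, adjusted p = 0.0318, in the Jmjd2b knockdown). Control array 1 was the lowest of all 8, and the call was lost when it, control array 3 or any of the Jmjd2b knockdown arrays was left out. Cyp51, which takes a methyl group off lanosterol, was at 995 and 1035 in the Jmjd2c knockdown, at 1431, 1487 and 1223 in the Jmjd2b knockdown and at 902, 1142 and 1066 in controls. Its rise in the Jmjd2b knockdown was 1.33-fold (log2 0.41 ± 0.12, adjusted p = 0.0291), and the Jmjd2c knockdown stayed inside the control range.

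Hsd17b7, a reductase of the steps that remove the methyl groups at the first ring, was at 216 and 174 in the Jmjd2c knockdown, at 327, 333 and 342 in the Jmjd2b knockdown and at 156, 229 and 205 in controls. The Jmjd2b knockdown arrays lay close together and above all others, a 1.66-fold rise over controls (log2 0.73 ± 0.16, adjusted p = 0.00751). Ebp, the isomerase that shifts a double bond of the sterol ring, was at 511 and 580 in the Jmjd2c knockdown, at 761, 871 and 583 in the Jmjd2b knockdown and at 382, 477 and 450 in controls. It rose 1.65-fold in the Jmjd2b knockdown (log2 0.72 ± 0.16, adjusted p = 0.00848), and the Jmjd2c knockdown arrays also lay above every control without passing the test (log2 0.31, adjusted p = 0.326). Sc5d, the desaturase near the end of the pathway, was at 323 and 406 in the Jmjd2c knockdown, at 477, 570 and 410 in the Jmjd2b knockdown and at 242, 361 and 289 in controls (log2 0.68 ± 0.18, adjusted p = 0.0189, in the Jmjd2b knockdown).

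Tm7sf2 went the other way. It encodes a sterol reductase that acts just after Cyp51. It was at 205 and 126 in the Jmjd2c knockdown, at 188, 145 and 130 in the Jmjd2b knockdown and at 324, 338 and 489 in controls. No knockdown array reached the lowest control. The fall was 2.33-fold in the Jmjd2b knockdown (log2 -1.22 ± 0.22, adjusted p = 0.00308) and 2.21-fold in the Jmjd2c knockdown (log2 -1.15 ± 0.24, adjusted p = 0.0194). The lamin B receptor gene Lbr, which encodes a second enzyme with this activity and was looked up after these values were seen, changed by 0.20 in the Jmjd2c knockdown (adjusted p = 0.168) and by 0.02 in the Jmjd2b knockdown (adjusted p = 0.873).

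The other 5 genes of the sterol branch did not pass the test in either knockdown. They were Fdft1 (squalene synthase), Lss (the cyclase that makes lanosterol), Msmo1 and Nsdhl (which remove methyl groups) and Dhcr7 (the last step to cholesterol). Their changes lay between -0.35 and -0.17 in the Jmjd2c knockdown and between -0.12 and 0.13 in the Jmjd2b knockdown. Enzymes of adjacent steps thus differed in whether they passed: Cyp51 did and Lss before it did not.

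**Figure D2:**
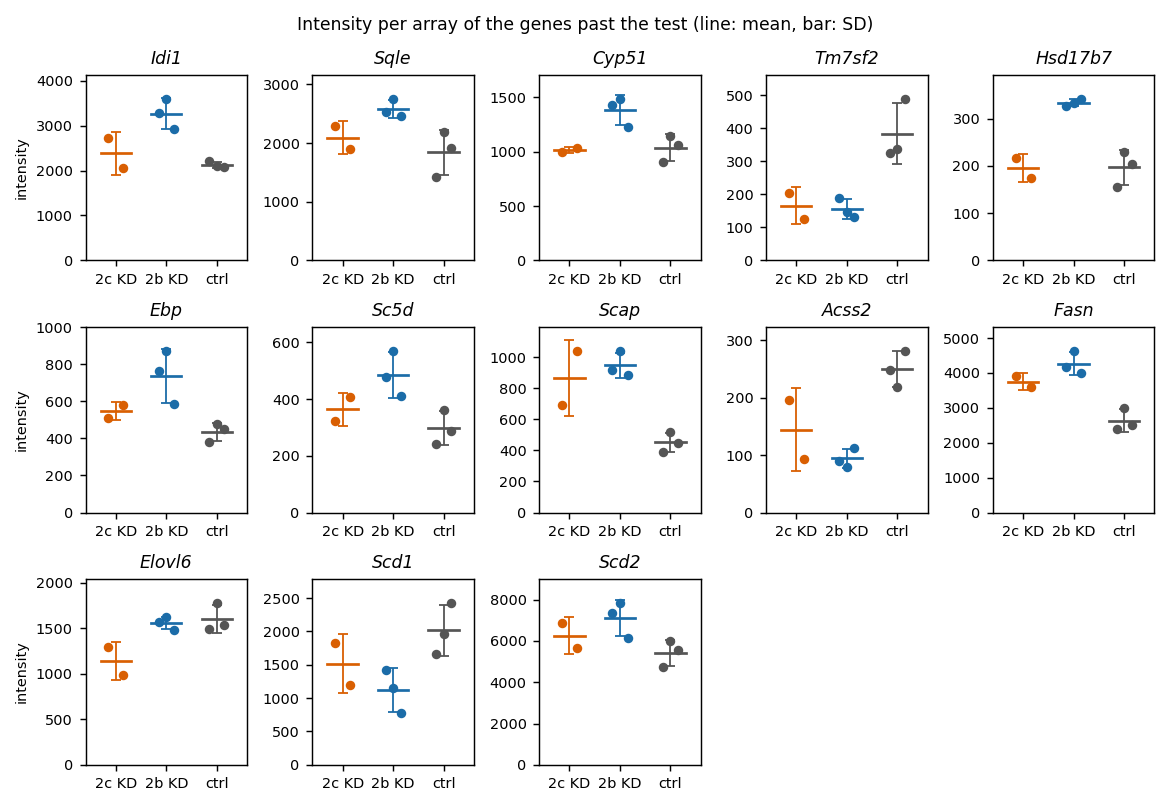
Intensity (linear, from 0) in each array of the 13 genes that passed the test in at least 1 knockdown, with Jmjd2c knockdown, Jmjd2b knockdown and control from left to right, a line for the mean and a bar for the SD. Points of 1 group do not overlap those of the control in the comparison where the gene passed, as for Tm7sf2, with 126 to 205 and 130 to 188 in the knockdowns and 324 to 489 in controls.

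Among sterol sensing and transport genes, 1 of 5 rose in the Jmjd2b knockdown (against 11.6% of all genes) and none fell (against 12.9%). Scap, the escort of the SREBP factors, was at 691 and 1040 in the Jmjd2c knockdown, at 919, 1040 and 883 in the Jmjd2b knockdown and at 392, 517 and 447 in controls. Every knockdown array stood above every control. The rise was 1.86-fold in the Jmjd2c knockdown (log2 0.89 ± 0.18, adjusted p = 0.017) and 2.06-fold in the Jmjd2b knockdown (log2 1.05 ± 0.16, adjusted p = 0.00155). The factors it escorts did not pass the test: Srebf1 changed by 0.26 in the Jmjd2c knockdown and 0.14 in the Jmjd2b knockdown, and Srebf2 by -0.27 and -0.09.

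Insig1, which holds Scap back and is itself a target of the SREBP factors, was at 2718 and 2062 in the Jmjd2c knockdown, at 2919, 2594 and 2618 in the Jmjd2b knockdown and at 3014, 3091 and 3595 in controls. All knockdown arrays were below all controls, with neither change past the test (log2 -0.44, adjusted p = 0.0559, in the Jmjd2c knockdown, and -0.25, adjusted p = 0.144, in the Jmjd2b knockdown). It passed in the Jmjd2c knockdown after quantile normalization (-0.48, adjusted p = 0.0383) and after median centring (adjusted p = 0.0478). Restricting the fit to genes above the median level gave an adjusted p of 0.0419 there. With only the 2 groups compared in the fit, Insig1 passed in the Jmjd2b knockdown (-0.25, adjusted p = 0.0487). Stard4, a carrier that moves cholesterol between membranes, changed by -0.34 (adjusted p = 0.138) in the Jmjd2c knockdown and by -0.19 (adjusted p = 0.289) in the Jmjd2b knockdown.

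Among fatty acid synthesis and desaturation genes, 2 of 10 rose in the Jmjd2b knockdown (against 11.6% of all genes) and 2 fell (against 12.9%). Fasn, fatty acid synthase, was at 3921 and 3588 in the Jmjd2c knockdown, at 4177, 4631 and 4003 in the Jmjd2b knockdown and at 2396, 2998 and 2505 in controls. The knockdown arrays all lay above the controls. Its rise was 1.43-fold in the Jmjd2c knockdown (log2 0.51 ± 0.11, adjusted p = 0.0179) and 1.62-fold in the Jmjd2b knockdown (log2 0.70 ± 0.10, adjusted p = 8.35e-04). Acaca, the carboxylase that makes the malonyl-CoA used by Fasn, changed by 0.30 (adjusted p = 0.346) in the Jmjd2c knockdown and by 0.40 (adjusted p = 0.0904) in the Jmjd2b knockdown.

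Genes whose enzymes make acetyl-CoA differed in their change. Acss2, which makes it from acetate, was at 195 and 93.1 in the Jmjd2c knockdown, at 89.5, 79.7 and 113 in the Jmjd2b knockdown and at 248, 219 and 281 in controls. It fell 2.42-fold in the Jmjd2b knockdown (log2 -1.27 ± 0.23, adjusted p = 0.0035). The Jmjd2c knockdown arrays were also below every control, but stood far apart, and the change did not pass (log2 -0.80 ± 0.26, adjusted p = 0.086). Acly, which makes acetyl-CoA from citrate, changed by 0.03 and 0.07 in the Jmjd2c and Jmjd2b knockdowns, with 95% intervals of -0.15 to 0.21 and -0.09 to 0.23.

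Of the stearoyl-CoA desaturases, which put the first double bond into fatty acids, Scd2 rose and Scd1 fell in the Jmjd2b knockdown by their brightest probe sets. Scd2 was at 6885 and 5641 in the Jmjd2c knockdown, at 7379, 7833 and 6134 in the Jmjd2b knockdown and at 4734, 5994 and 5546 in controls (log2 0.39 ± 0.12, adjusted p = 0.0353, in the Jmjd2b knockdown). Scd1 was at 1830 and 1201 in the Jmjd2c knockdown, at 1429, 1157 and 774 in the Jmjd2b knockdown and at 1658, 1968 and 2424 in controls (log2 -0.87 ± 0.23, adjusted p = 0.0225, in the Jmjd2b knockdown). A second probe set of Scd1 did not show this fall. It was at 808 and 480 in the Jmjd2c knockdown, at 639, 703 and 406 in the Jmjd2b knockdown and at 332, 553 and 561 in controls (log2 0.27, adjusted p = 0.551, in the Jmjd2b knockdown), so the direction of Scd1 is uncertain.

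Elovl6, which lengthens palmitate, was at 1291 and 991 in the Jmjd2c knockdown, at 1569, 1620 and 1487 in the Jmjd2b knockdown and at 1489, 1777 and 1538 in controls. The Jmjd2c knockdown lay below all other arrays, a 1.41-fold fall against controls (log2 -0.49 ± 0.13, adjusted p = 0.043), while the Jmjd2b knockdown changed by -0.04 (adjusted p = 0.866). The call was lost when any array other than Jmjd2c knockdown array 1 was left out, as without Jmjd2c knockdown array 2 (-0.30, adjusted p = 0.173), and it held in 7 of 20 alternative settings. The elongase Elovl5 and the desaturases Fads1 and Fads2, which serve polyunsaturated fatty acids, did not pass in either knockdown. Elovl5 was at 1581 and 2801 in the Jmjd2c knockdown, below and above all 3 controls (2046, 2712 and 2692).

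**Figure D3:**
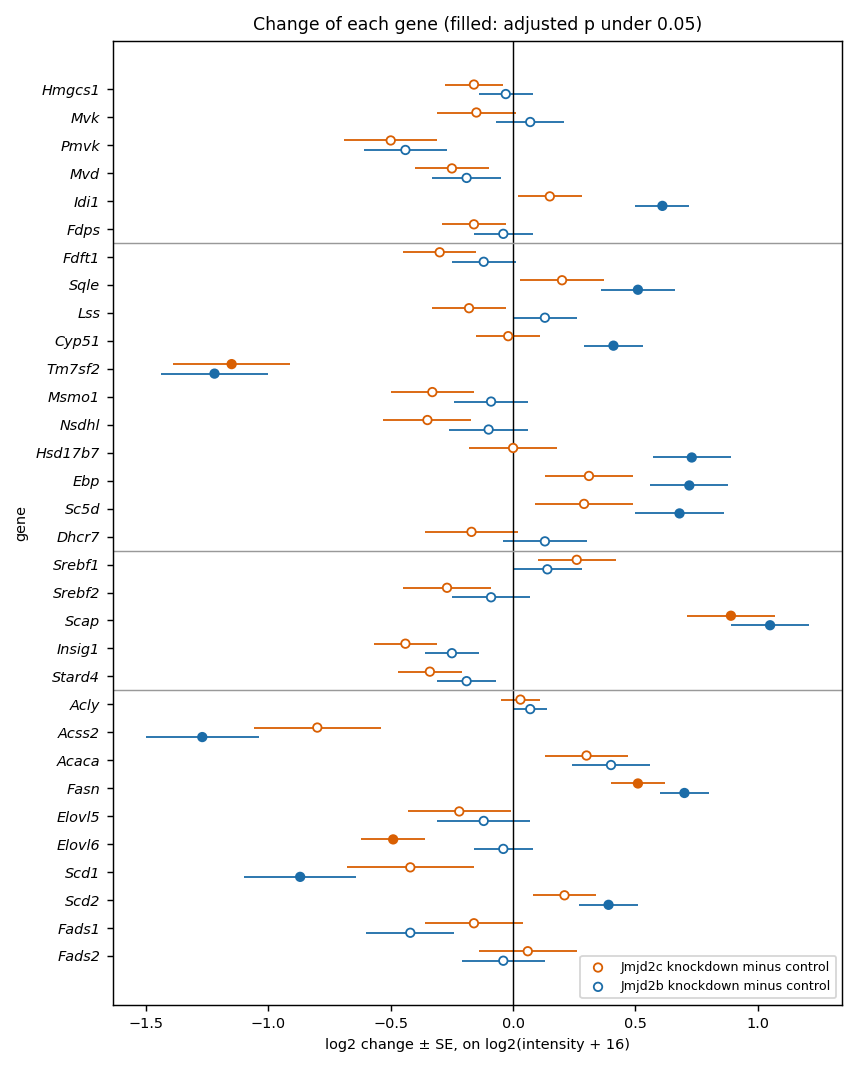
Log2 change against control with its SE for each gene (Jmjd2c knockdown above, in orange, and Jmjd2b knockdown below, in blue), with filled points where the adjusted p was under 0.05. Tm7sf2, Scap and Fasn are filled in both comparisons, Elovl6 is filled for the Jmjd2c knockdown alone, and 9 further genes are filled for the Jmjd2b knockdown alone.

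In the Jmjd2c knockdown, 2 of the 32 genes were higher than in controls (Scap and Fasn) and 2 were lower (Tm7sf2 and Elovl6). Over all genes, 4.31% were higher and 5.28% lower (9.59% either way), and of the genes above the median level 7.3% were higher and 8.31% lower. The shares among the 32 genes were 6.25% each way, so they were near the background. The median log2 change of the 32 was -0.16, against -0.02 over all genes, and 11 of the 32 values were above 0. The groups did not overlap for 15 of the 32 genes, against 38.6% of all genes, and 8 of the 32 had an unadjusted p below 0.05, against 23.9% of all genes. Both knockdowns were set against the same 3 controls, so the 3 genes that passed in both (Scap, Fasn and Tm7sf2) share that side of the comparison. All 4 genes kept their direction when the 2 Jmjd2c knockdown arrays were set against the only control without the floor at 1. Since the groups did not overlap for these 4 genes, this result was fixed beforehand and no conclusion is drawn from it. With array set as a term in the model, none of the 4 passed. The calls of Scap and Tm7sf2 were lost without Jmjd2c knockdown array 2 or control array 3, that of Fasn without control array 1 or 3, and that of Scap also without control array 1.

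Set directly against each other, the knockdowns did not differ by the test in any of the 32 genes, while 0.693% of all genes passed in this comparison by limma (0.203% higher and 0.489% lower in the Jmjd2c knockdown). The groups did not overlap for 8 of the 32 genes, against 27.1% of all genes. At an unadjusted p below 0.05 there were 5 of the 32 genes, against 13.1% of all genes. They were Hsd17b7 (Jmjd2c minus Jmjd2b knockdown, log2 -0.74, 95% interval -1.13 to -0.35, adjusted p = 0.101), Idi1 (-0.46, -0.75 to -0.18, adjusted p = 0.153), Elovl6 (-0.46, -0.75 to -0.17, adjusted p = 0.163), Cyp51 (-0.43, -0.72 to -0.14, adjusted p = 0.187) and Ebp (-0.41, -0.81 to -0.01, adjusted p = 0.364). All 5 were lower in the Jmjd2c knockdown. Of the 32 values, 26 were below 0 and their median was -0.18, against 0 over all genes. For the genes that passed in both knockdowns the intervals were -0.56 to 0.26 for Scap, -0.42 to 0.06 for Fasn and -0.47 to 0.62 for Tm7sf2, which leave room for differences of either sign. A gene that passed in the Jmjd2b knockdown alone is therefore not shown to differ between the knockdowns.

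Single arrays were low across many of these genes. Jmjd2b knockdown array 3 was the lowest of its group in 28 of the 32 genes, against 35.6% of all genes, and control array 1 in 25 of the 32, against 41.9%. Jmjd2c knockdown array 2 was the lower of its pair in 22 of the 32, against 47.4%. The median deviation of the 32 genes from their group mean was 0.13 and -0.13 in the Jmjd2c knockdown, 0.10, 0.07 and -0.18 in the Jmjd2b knockdown, against -0.17, 0.09 and 0.07 in controls, on the log2 scale. The median change of the list in the Jmjd2c knockdown, -0.16, was of the same order as these shifts within groups. Without control array 1 the number of genes higher in the Jmjd2b knockdown was 5 in place of 9, and it was also 5 without control array 3, Jmjd2b knockdown array 1 or Jmjd2b knockdown array 2. Sqle, Cyp51, Sc5d and Scd2 lost their calls under each of these 4 omissions. Scd1 lost its call without control array 2 or 3 or Jmjd2b knockdown array 2 or 3. With array set as a term in the model, Sqle, Hsd17b7 and Scd1 no longer passed. All 12 genes that passed in the Jmjd2b knockdown kept their direction within each array set that held both groups. It could not have been otherwise, because their groups did not overlap, so no conclusion is drawn from it.

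**Figure D4:**
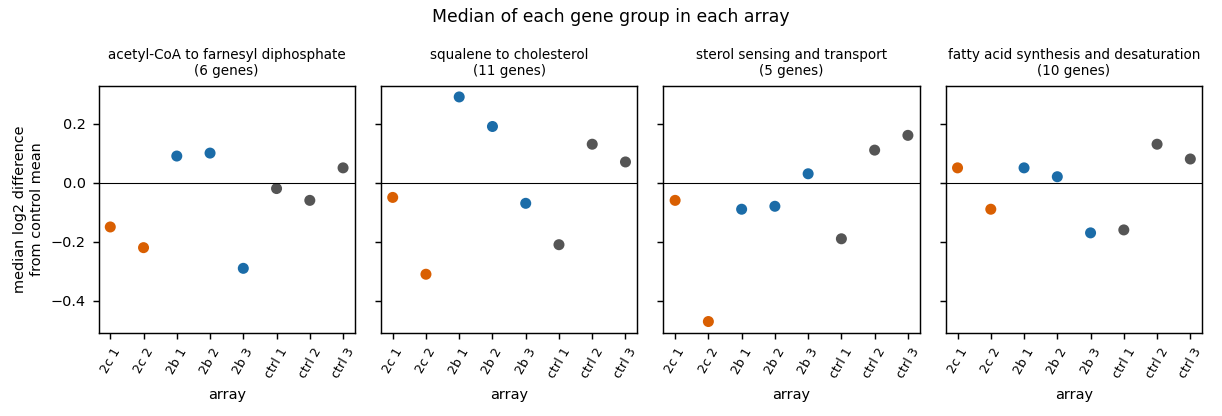
Median over the genes of each role of log2(intensity + 16) minus the control mean, in each array (Jmjd2c knockdown orange, Jmjd2b knockdown blue, control grey). In the squalene to cholesterol genes the values were -0.05 and -0.31 in the Jmjd2c knockdown, 0.29, 0.19 and -0.07 in the Jmjd2b knockdown, against -0.21, 0.13 and 0.07 in controls, so the groups overlap.

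Where a gene had several probe sets, some calls were also made on a second probe set and some were not. Acss2 fell by 1.41 on a second probe set in the Jmjd2b knockdown (adjusted p = 3.72e-04). Hsd17b7 rose on 3 probe sets there (0.73, 0.57 and 0.46), and the dimmest gave -0.34 (adjusted p = 0.0995). In the Jmjd2c knockdown the same 3 probe sets of Hsd17b7 gave 0.00, 0.52 and 0.44, so its value between the knockdowns differs by probe set. Cyp51 gave 0.47 on its second probe set (adjusted p = 0.0764) and Sc5d 0.50 (adjusted p = 0.127), both in the Jmjd2b knockdown. Lss gave 0.13 on the brightest and -0.39 (adjusted p = 0.0991) on the second, and Stard4 gave -0.19, 0.42 and -0.13. In the Jmjd2c knockdown Elovl6 gave -0.45 on its second probe set (adjusted p = 0.0503) and 0.06 on its dimmest. Hmgcs1 had a dim probe set that rose in the Jmjd2b knockdown (0.87, adjusted p = 0.0115), while the other 4 lay between -0.07 and 0.02. Scap rests on 1 probe set, since its other was at background level (mean intensity 14.3), and Sqle, Ebp, Fasn and Tm7sf2 had only 1 probe set.

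**Figure D5:**
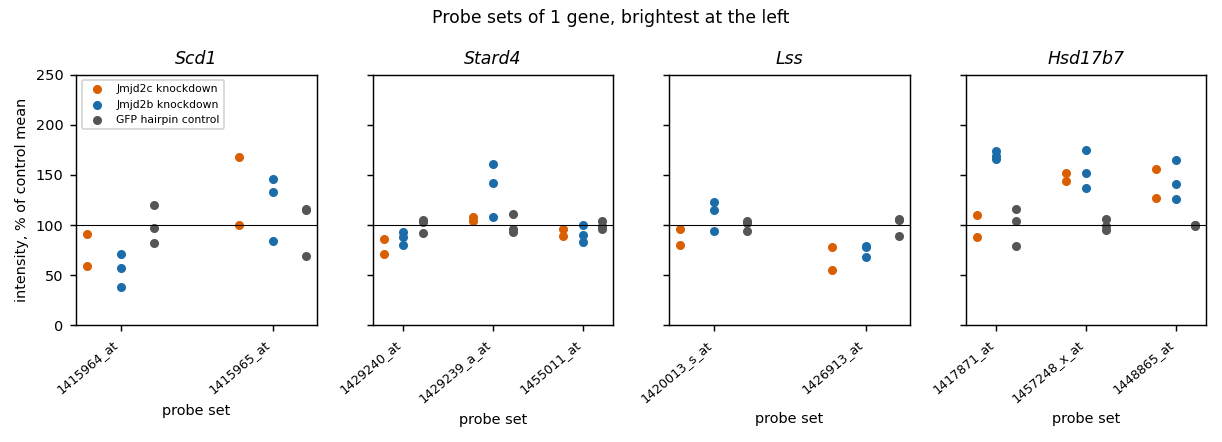
Intensity of each probe set above 100 as a percentage of its own control mean, per array, for Scd1, Stard4, Lss and Hsd17b7 (Jmjd2c knockdown orange, Jmjd2b knockdown blue, control grey), with the brightest probe set at the left of each panel. The Jmjd2b knockdown arrays lie below 100% on the first probe set of Scd1 and on both sides of it on the second, while all lie above 100% on the 3 probe sets of Hsd17b7.

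Other genes of lipid metabolism were counted from 7 lists. The counts stand against 4.31% higher and 5.28% lower of all genes in the Jmjd2c knockdown, and 11.6% and 12.9% in the Jmjd2b knockdown. In SREBP processing and degradation, 1 of 7 rose in the Jmjd2c knockdown and 2 of 7 in the Jmjd2b knockdown, with none lower. Ubxn8, a UBX-domain protein, rose by 1.10 (adjusted p = 0.00627) and by 1.04 (adjusted p = 0.00113). It is not the UBX-domain protein known for the degradation of Insig1, which Faf2 encodes, so its place in this list is doubtful. Mbtps1, the first protease that cuts the SREBP factors, changed by 0.59 (adjusted p = 0.133) and rose by 0.61 (adjusted p = 0.047). In sterol uptake and trafficking, 3 of 9 fell in the Jmjd2c knockdown, and 1 of 9 rose and 3 fell in the Jmjd2b knockdown. Scarb1, the HDL receptor, fell by 0.68 (adjusted p = 0.0357) and by 1.07 (adjusted p = 9.96e-04). Osbpl2, an oxysterol-binding protein, fell by 0.79 (adjusted p = 0.0175) and by 0.73 (adjusted p = 0.00557), and Vldlr, a lipoprotein receptor, by 0.69 (adjusted p = 0.029) and by 0.66 (adjusted p = 0.00854). Stard3, a late endosomal cholesterol carrier, rose by 0.61 in the Jmjd2b knockdown (adjusted p = 0.0137).

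In sterol efflux and LXR targets none of 7 passed in the Jmjd2c knockdown, and 1 fell in the Jmjd2b knockdown: the cholesterol exporter Abcg1 (log2 -1.49, adjusted p = 0.00636). In the non-sterol branches of isoprenoid synthesis, 1 of 9 rose in the Jmjd2c knockdown, against 2 higher and 1 lower of 9 in the Jmjd2b knockdown. The farnesyltransferase subunit Fntb rose by 0.71 in both (adjusted p = 0.0473 and 0.0142), Fnta rose by 0.27 in the Jmjd2b knockdown (adjusted p = 0.0227) and Rabggtb, of the Rab geranylgeranyl transferase, fell by 0.42 there (adjusted p = 0.0193).

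In fatty acid supply, elongation and activation, 1 of 17 rose and 2 fell in the Jmjd2c knockdown, and 5 rose and 3 fell in the Jmjd2b knockdown. Acsl5, an acyl-CoA synthetase, rose by 0.85 (adjusted p = 0.0259) and by 1.30 (adjusted p = 7.47e-04), while Elovl7, an elongase, fell by 1.69 (adjusted p = 0.00208) and by 1.48 (adjusted p = 2.96e-04). Slc25a1, the carrier that brings citrate out of mitochondria, fell by 0.55 (adjusted p = 0.0202) and by 0.62 (adjusted p = 0.00262), and Acsl3 rose by 0.78 in the Jmjd2b knockdown (adjusted p = 0.00323). In glycerolipid synthesis 2 of 12 fell in the Jmjd2c knockdown, and 2 rose and 1 fell in the Jmjd2b knockdown. Lpin1, a phosphatidate phosphatase, fell by 0.99 (adjusted p = 0.0158) and by 0.94 (adjusted p = 0.00434). Agpat2 fell by 0.67 in the Jmjd2c knockdown (adjusted p = 0.0102), and Dgat2 and Gpat4 rose by 0.62 and 0.43 in the Jmjd2b knockdown (adjusted p = 0.0127 and 0.0345).

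In fatty acid oxidation, which breaks down what the pathway above makes, 1 of 14 fell in the Jmjd2c knockdown and 6 of 14 fell in the Jmjd2b knockdown, with none higher. Over all genes, 5.28% and 12.9% were lower in these comparisons, and of the genes above the median level 8.31% and 19.1%. Cpt1a, which admits fatty acids to mitochondria, was at 578 and 572 in the Jmjd2c knockdown, at 224, 165 and 321 in the Jmjd2b knockdown and at 1507, 1192 and 1594 in controls. The groups did not overlap, and on the log2 scale Cpt1a fell by 1.28 (adjusted p = 0.0105) in the Jmjd2c knockdown and fell by 2.56 (adjusted p = 7.22e-05) in the Jmjd2b knockdown. Hadh, a dehydrogenase of the oxidation cycle, fell by 0.70 in the Jmjd2b knockdown (adjusted p = 8.87e-04).

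Markers of cell identity moved in the same arrays. For the counts below, the shares of all genes were 4.31% higher and 5.28% lower in the Jmjd2c knockdown. They were 11.6% and 12.9% in the Jmjd2b knockdown. Pou5f1, the defining ES cell gene, was at 7410 and 7536 in the Jmjd2c knockdown, at 7784, 7639 and 8038 in the Jmjd2b knockdown and at 7784, 7870 and 7832 in controls. Of 8 ES cell markers, 3 were lower in the Jmjd2c knockdown and 6 in the Jmjd2b knockdown, and their summed intensity was 49319 to 49646 in the Jmjd2c knockdown, 46019 to 48761 in the Jmjd2b knockdown and 58662 to 59717 in controls. Trophectoderm markers summed to 3725 to 4869 in the Jmjd2c knockdown, to 5954 to 6993 in the Jmjd2b knockdown and to 3809 to 4273 in controls (1 of 8 higher in the Jmjd2c knockdown, and 4 higher and 2 lower in the Jmjd2b knockdown). Krt8, a keratin gene, averaged 479 ± 216 in the Jmjd2c knockdown, 2695 ± 798 in the Jmjd2b knockdown and 438 ± 71.4 in controls. Tfap2c averaged 3344 ± 534 in the Jmjd2c knockdown, 2358 ± 76.2 in the Jmjd2b knockdown and 3219 ± 371 in controls, and together they made up most of the trophectoderm sum. The defining gene Cdx2 was at 28.6 and 18.6 in the Jmjd2c knockdown, at 331, 532 and 464 in the Jmjd2b knockdown and at 5.63, 5.94 and 1.14 in controls.

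Neural markers summed to 2678 to 2682 in the Jmjd2c knockdown, to 4295 to 6080 in the Jmjd2b knockdown and to 1236 to 1386 in controls (2 and 3 of 7 higher in the Jmjd2c and Jmjd2b knockdowns). Primitive endoderm markers summed to 3052 to 3632 in the Jmjd2c knockdown, to 4437 to 5255 in the Jmjd2b knockdown and to 2790 to 3170 in controls (1 of 10 higher in the Jmjd2c knockdown, and 3 higher and 1 lower in the Jmjd2b knockdown). One gene made up most of each of these sums in the knockdowns. Nefl, a neurofilament gene, averaged 1661 ± 301 in the Jmjd2c knockdown, 4066 ± 599 in the Jmjd2b knockdown and 466 ± 82.2 in controls (SD, n = 2, 3 and 3). Sparc, a matrix protein gene, averaged 2747 ± 483 in the Jmjd2c knockdown, 4215 ± 401 in the Jmjd2b knockdown and 2312 ± 153 in controls. The first gene of the neural list, Sox1, was at 38.1 and 156 in the Jmjd2c knockdown, at 68.5, 61.5 and 69 in the Jmjd2b knockdown and at 262, 76.3 and 88.1 in controls. Gata6, the first of the primitive endoderm list, was at 14.8 and 13.2 in the Jmjd2c knockdown, at 29.5, 22.4 and 15.8 in the Jmjd2b knockdown and at 25.4, 31.8 and 32.6 in controls. In both lists the first gene was thus near or below its control range while the summed levels were higher in the Jmjd2b knockdown. The neural gene Pax6 rose by 1.88 and 1.44 in the Jmjd2c and Jmjd2b knockdowns (adjusted p = 0.00746 and 0.00434). Nes rose by 2.79 in the Jmjd2b knockdown (adjusted p = 9.94e-04). The endoderm gene Dab2 rose by 0.75 and 1.35 in the Jmjd2c and Jmjd2b knockdowns (adjusted p = 0.027 and 3.29e-04). Foxa2 rose by 1.88 and Lama1 fell by 0.89 in the Jmjd2b knockdown (adjusted p = 0.00823 and 0.00412). Markers of fibroblasts, the usual feeder cells, summed to 6018 to 7424 in the Jmjd2c knockdown, to 5740 to 6466 in the Jmjd2b knockdown and to 4875 to 5992 in controls, with 2 of 10 lower in the Jmjd2c knockdown and 2 higher and 2 lower in the Jmjd2b knockdown. Nearly all of this sum was Vim, which is not specific to fibroblasts, averaged 6290 ± 959 in the Jmjd2c knockdown, 5744 ± 368 in the Jmjd2b knockdown and 4922 ± 586 in controls, and did not pass the test in either (adjusted p = 0.0935 and 0.154). The defining fibroblast gene Col1a1 was near background, at 25.0 and 26.4 in the Jmjd2c knockdown, at 47.4, 50.4 and 69.9 in the Jmjd2b knockdown and at 12.5, 17.7 and 7.34 in controls. The part of these shifts in the changes of the lipid genes was not tested, and in bulk RNA fewer cells of a type and less RNA per cell cannot be told apart.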

How the data were processed

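Total RNA of 8 samples was labelled as biotinylated cRNA and hybridised to 1 array each, per the labels' protocols. The authors deposited 1 intensity per probe set and array on a linear scale. The sources used here do not state how probes were summarised, background was corrected or arrays were scaled. Groups and replicate numbers came from the sample titles.

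Of 45101 probe sets, 34945 carried exactly 1 symbol in the platform annotation and 932 several, which gave 18193 genes by the brightest probe set. All 32 measured genes matched a RefSeq gene table, with 0 symbols changed. Group means of log2(intensity + 16) were fitted to all 8 arrays with lmFit and eBayes with a trend in limma 3.58.1 (R 4.3.3), two-sided, with Benjamini-Hochberg adjustment over all genes and a threshold of 0.05. No further normalization or filter was applied. The code was tested on simulated data. The number of arrays limits the precision. Motifs were searched with Python 3.11.15.

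All measured genes of the part were tested in every comparison and are named above, but not each with its value in every comparison. Kdm4b and Kdm4c served as target check. Each pathway list gave up to 2 higher and 2 lower genes per comparison against control, with the smallest p among those past the threshold. Lbr was added after values were seen. The members and lists were chosen with earlier results of these data known. Deviations from group means correlated at 0.176, 0.111 and 0.116 between Jmjd2b knockdown and control arrays of the same number. Between those of different numbers the values were -0.127 to 0.0167. Jmjd2c knockdown and control arrays of the same number gave 0.0408 and 0.0633. Deviations within a group cancel out, so these values depend on each other, and a pairing was not tested. The labels state no pairing, and the main fit used none. Array sets were drawn from shared identical values, and the 3 arrays with a floor at 1, which share few, were taken as 1 set. No pair shared enough values to count as a repeat.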

Additional observations from a re-analysis of the deposited data

How the results depend on the processing

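Under other offsets, scalings, filters, probe set rules, samples in the fit, priors, blocks and omissions of an array, 20 settings in all, no called gene reversed. Idi1, Ebp, Scap, Fasn, Tm7sf2 and Acss2 passed in the Jmjd2b knockdown in all 20. With the mean of all probe sets of a gene, Scap gave 0.46 there and Scd1 gave -0.30 (adjusted p = 0.447). Leaving out 1 array gave 5 to 10 genes higher and 2 to 4 lower in the Jmjd2b knockdown, 0 to 2 higher and 0 to 5 lower in the Jmjd2c knockdown, and 0 to 1 higher and 0 to 3 lower in the Jmjd2c against the Jmjd2b knockdown. Where Jmjd2c knockdown array 1 was left out, its lone partner was assumed to vary like the other groups, and Insig1 (-0.64), Stard4 (-0.47) and Acss2 (-1.28) were lower than in controls, while Idi1 (-0.66), Hsd17b7 (-0.88) and Elovl6 (-0.64) were lower than in the Jmjd2b knockdown. Without array 2, Acss2 was higher than in the Jmjd2b knockdown (0.95) and Elovl5 was lower than in controls (-0.63).

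In the Jmjd2c knockdown 0 genes were higher and 0 lower with only the 2 groups compared in the fit, and 0 and 0 with array set as a block. There was 1 higher and 1 lower with no trend. With array type as a block, Scap and Fasn stayed higher and Tm7sf2 lower, while Elovl6 was lost (-0.44, adjusted p = 0.159). With the replicate number as a block, the Jmjd2b knockdown kept its 9 higher and 3 lower genes, the Jmjd2c knockdown had 2 higher and 1 lower because Elovl6 was lost (-0.52, adjusted p = 0.0702), and no other call changed. Over all genes, calls in the Jmjd2c knockdown numbered 876 with only the 2 groups, 1057 with array type and 9 with array set as a block, against 1745. Calls between the knockdowns numbered 80 with an offset of 1, 82 without the probe sets that can detect related transcripts, 2 with only the 2 groups, 66 with no trend, 6 with array type and 5 with array set as a block, against 126. Leaving out 1 array gave 469 to 2935 genes in the Jmjd2c knockdown, 2635 to 5630 in the Jmjd2b knockdown (against 4446) and 2 to 804 between the knockdowns. Each comparison held 638 values over these settings, those of called genes included. Sign changed, for values that passed neither way, in 30 cases in the Jmjd2c knockdown, 25 in the Jmjd2b knockdown and 26 between the knockdowns. The cause of these changes was not tested.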
